A study of Mus musculus with 8 samples.

Results

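The cytosolic ribosome of mouse cells is built from a small 40S and a large 60S subunit, and the genes of its proteins are described here. Members were chosen by symbol: Rpl or Rps followed by a digit, with Rplp0, Rplp1, Rplp2 and Rpsa, without Rps6k kinases, pseudogene names ending in -ps and like-genes ending in l1 to l3. Of 22173 symbols in the files, 88 matched, and 84 had at least 20 counts in a library. They are 31 core genes of the 40S subunit, 46 core genes of the 60S subunit, 6 paralogs or retrogenes and Rps19bp1, whose name fits the rule although it encodes a protein that binds RPS19 and is not part of the ribosome. Rpl10l (0 counts in all libraries), Rpl39l (highest count 17), Rpl3l (6) and Rps23rg1 (10) were below the minimum.

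RNA was sequenced from primary bone marrow-derived macrophages (BMDMs) and primary tubular epithelial cells (TECs) of WT mice (C57BL/6 in the methods of the study), in 8 groups with 1 library each. BMDMs were differentiated for 7 days and kept as M0 macrophages, given LPS/INF (LPS at 100 ng/ml and IFN-γ at 20 ng/ml, here M1) or IL4 (20 ng/ml, here M2), each without or with 10 μmol/L G-1, an agonist of the estrogen receptor GPER1, for 48 h. TECs were co-cultured for 24 h in trans-wells with macrophages pretreated with LPS/IFN, or with LPS/IFN and G-1, so that G-1 was given to the macrophages and not named as a treatment of the TECs. Each library pooled RNA of 3 samples, which leaves no replicate: every difference is one between 2 libraries, intervals cover counting error only, and no p-value is given for a pair. The study's methods list each pair without and with G-1 as a sequencing set of its own, so that a difference between M0, M1, M2 or TEC libraries and one between sets cannot be told apart. No age of the mice used for BMDMs or TECs was found in the sources used here.

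Library totals ran from 35027179 to 40671596 counts, and core members held between 2069 and 80850 counts each. All 10 macrophage markers had at least 20 counts in the 6 macrophage libraries and all 10 epithelial markers in both TEC libraries, and 0 of the 10 epithelial markers did so in a macrophage library. In the TEC libraries the macrophage markers summed to 199 CPM (counts scaled to a common library total) without and 118 CPM with G-1, against 11225 to 45517 in the macrophage libraries, and 7 and 6 of 8 fibroblast markers had 20 counts. The libraries labelled IL4 went against the usual markers of IL-4: Arg1 had 7 counts without and 4 with G-1, Retnla 0 and 0, Chil3 9 and 9, Ccl17 0 and 0, and Mgl2 14 and 2. Mrc1, at 188110 counts without G-1 against 83675 in M0, was the one high marker of that list. Results on M2 are therefore results on the library labelled IL4.

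Ribosomal proteins are needed in about equimolar amounts, and their mRNAs are among the most abundant and shortest of a cell. In mammals most of these mRNAs begin with a C followed by a run of pyrimidines, the 5′ terminal oligopyrimidine (TOP) tract, through which mTORC1 and the RNA-binding protein LARP1 set how much of the mRNA is translated and how stable it is. Translation factors such as EEF1A1 and EEF2 carry the same tract, while ribosome assembly factors and the proteins of the mitochondrial ribosome in general do not. The counts analysed here measure the level of the mRNA and not its translation.

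The tract can be read at the annotated transcript starts. RefSeq promoter windows on GRCm38.p6 (250 bases before to 50 after the annotated start) were at hand for 63 of the 84 members. The following 30-base stretches, from 10 bases before the start on, show some of them, most of which are named in the results below. They are a selection in which a tract at the start is more frequent than among the 63. Capitals mark a C and the pyrimidines that follow it without a break. In the first 8 the marked stretch was read from the annotated start on, and pyrimidines just before the start stay in lower case.
Rplp2, chr7:141447641-141447670, plus strand: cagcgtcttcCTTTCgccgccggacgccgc
Rps15a, chr7:118116128-118116157, minus strand: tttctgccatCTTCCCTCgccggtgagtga
Rps21, chr2:180257369-180257398, plus strand: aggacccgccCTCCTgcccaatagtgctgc
Rps27, chr3:90213629-90213658, minus strand: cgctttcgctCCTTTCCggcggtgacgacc
Rps27rt, chr9:114982720-114982749, minus strand: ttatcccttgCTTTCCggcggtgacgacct
Rpl28, chr7:4792955-4792984, plus strand: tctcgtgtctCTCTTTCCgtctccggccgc
Rps6, chr4:86857348-86857377, minus strand: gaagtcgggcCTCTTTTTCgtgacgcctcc
Rpl35a, chr16:33056472-33056501, plus strand: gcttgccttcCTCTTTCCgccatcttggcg
In the next 2 the marked stretch begins a few bases away. In the last 3 the windows hold no C followed by 4 pyrimidines at the annotated start or within 5 bases of it.
Rpl12, chr2:32961702-32961731, plus strand: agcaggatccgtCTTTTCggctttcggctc
Rps2, chr17:24720053-24720082, plus strand: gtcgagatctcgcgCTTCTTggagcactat
Rpl4, chr9:64173377-64173406, plus strand: tttcctgtgggagcagccgggtagagagga
Rpl24, chr16:55966265-55966294, plus strand: gctgttgctaggaaacagactgggcgctcg
Rpl41, chr10:128549149-128549178, minus strand: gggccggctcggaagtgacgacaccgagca
Rps27 and its retrogene Rps27rt carry the same bases after the tract. A C followed by at least 4 pyrimidines stood exactly at an annotated start in 15 of 63 members (23.8%) and in 798 of 26962 other genes (2.96%). It began within 5 bases of the start in 30 members (47.6%) against 21.1% of other genes. At the exact start it was found in 4 of 10 other TOP genes, in 1 of 53 ribosome biogenesis genes and in 0 of 69 mitochondrial ribosomal protein genes. The letters ACTTCCG, which ETS family factors such as GABPA can bind, occurred on either strand of the 300 bases in 23 members (36.5%) and in 7.14% of other genes. TATAAA on either strand was found in 7 members (11.1%) and 15.7% of other genes. These matches describe annotated sequence: no start was measured here, and a window without a match says only that these letters are not in it.

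The 84 genes took the smallest part of the RNA in M1 macrophages without G-1 and the largest in TECs with G-1. Their share of all counts was 3.75% in M0, 2.59% in M0 with G-1, 1.90% in M1, 3.69% in M1 with G-1, 3.16% in M2, 3.20% in M2 with G-1, 3.76% in TECs and 5.04% in TECs with G-1. The exact 95% intervals (Clopper-Pearson) were narrow, 3.74% to 3.76% in M0 and 1.90% to 1.91% in M1. The share with G-1 was thus 0.690 times that without in M0, 1.94 times in M1, 1.01 times in the M2 pair and 1.34 times in TECs, and M1 held 0.508 times the share of M0. In bulk samples fewer cells of a type and less RNA per cell cannot be told apart. Both subunits had nearly the same course. The 60S genes had 1.39 times the counts of the 40S genes in M0 and 1.44 times in M1, and the 8 libraries stayed between 1.37 and 1.44.

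**Figure D1:**
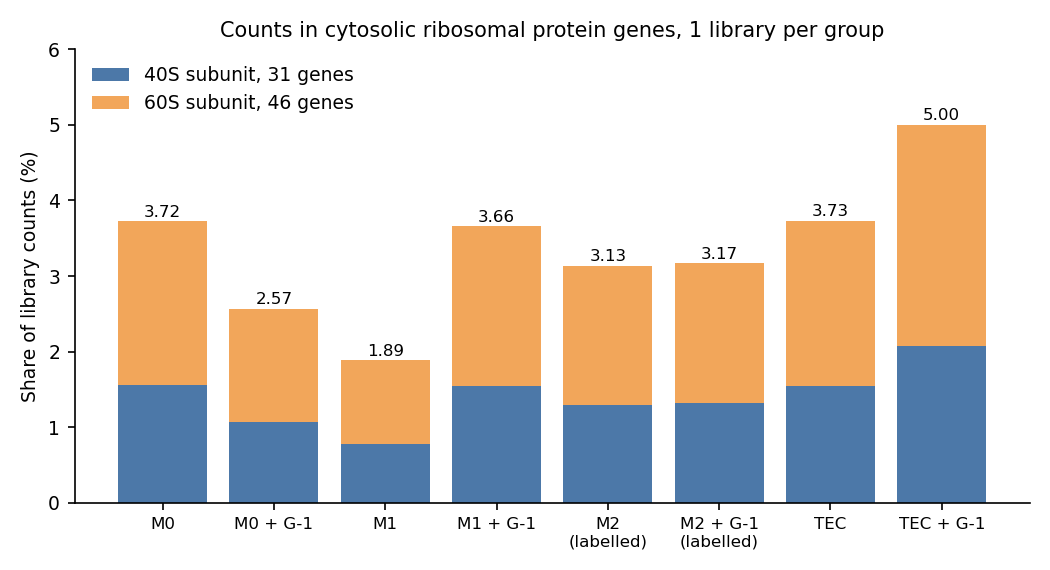
Share of all counts of a library (y axis, %) in the 31 core genes of the 40S subunit and the 46 of the 60S subunit, stacked, for each of the 8 libraries (x axis). Numbers above the bars are the sums; M1 without G-1 is lowest at 1.89% and TECs with G-1 highest at 4.998%.

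Most genes followed this order. Of the 77 core genes, 72 had their lowest CPM in M1 without G-1, and 58 had their highest in TECs with G-1, 11 in M0, 6 in M1 with G-1 and 2 in M2 with G-1. The 5 genes that were not lowest in M1 were Rpl24, Rpl29 and Rpl41 (lowest in M0 with G-1), Rpl3 (M1 with G-1) and Rps29 (TECs). Per length, as TPM (counts per transcript length, scaled to a common total, from median transcript lengths), the median core gene had 424 TPM in M1 and 1165 in TECs with G-1, and the members together made up 3.66% of all TPM in M1 and 10.1% in TECs with G-1. Rplp0, the protein P0 at the base of the stalk that binds translation factors, had the highest TPM in 5 libraries, with 1492 TPM in M1 and 3919 TPM in TECs with G-1. Rplp1 led in the M2 pair, at 2068 TPM without and 2150 with G-1, and Rps29, a zinc-binding protein of the 40S head, in M0 at 2410 TPM. Rpl22, whose annotated transcripts are long (2048 nt), was lowest in 6 libraries, at 64.0 TPM in M1 and 195 TPM in TECs with G-1.

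The 3 proteins of the stalk, which recruits elongation factors to the ribosome, followed this order with differences in size. Rplp0 stood at 1358 CPM in M0, 1028 in M0 with G-1, 905 in M1, 1532 in M1 with G-1, 1084 in M2, 1087 in M2 with G-1, 1737 in TECs and 2226 in TECs with G-1. Rplp1 stood at 802 CPM in M0, 562 in M0 with G-1, 419.5 in M1, 786 in M1 with G-1, 706 in M2, 727 in M2 with G-1, 725 in TECs and 1034 in TECs with G-1. Rplp2 stood at 422 CPM in M0, 291 in M0 with G-1, 227 in M1, 625 in M1 with G-1, 263 in M2, 273 in M2 with G-1, 386 in TECs and 535 in TECs with G-1. All 3 were lowest in M1, and Rplp2 alone was highest in M1 with G-1. Rpl5 and Rpl11, which with the 5S rRNA form a particle that can bind and block MDM2, were also lowest in M1: Rpl5 had 644 CPM in M0, 488 in M0 with G-1, 304 in M1, 524 in M1 with G-1, 575 in M2, 641 in M2 with G-1, 749 in TECs and 950.0 in TECs with G-1. Rpl11 had 429 CPM in M0, 269 in M0 with G-1, 209 in M1, 392 in M1 with G-1, 399.8 in M2, 414 in M2 with G-1, 395 in TECs and 539.8 in TECs with G-1.

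In M1 macrophages with G-1, all 84 members were higher than in M1 without G-1 once the pair was scaled as described next. By CPM, which uses library totals, Rpl3 was slightly lower with G-1 (287 against 291). After scaling of the pair by the trimmed mean of M-values (TMM), 69 of the 84 members were at least 2-fold higher, where 9.44% of all 11064 measured genes were, and 0 were at least 2-fold lower (12.1% of all genes). Of 2178 nonmember genes of like transcript length, 20.3% were at least 2-fold higher and 6.29% lower. All 84 folds were above 1 and all 84 intervals excluded 1. The median fold was 2.32 (log2 1.21, quartiles 1.07 and 1.34), 27 of 31 genes of the 40S and 36 of 46 of the 60S subunit passed 2-fold, and 74 of the 77 core genes lay within 0.5 log2 units of the core median. Scaling by total counts left 43 members past 2-fold, with no share of all genes computed under that scaling. Macrophage markers summed to 18966 CPM without and 12942 CPM with G-1. Of these 10 markers, 3 were at least 2-fold lower and 1, Cd68, higher at log2 2.52 (12.1% and 9.44% of all genes). Of 8 markers of LPS and IFN-γ, 6 were at least 2-fold lower and 0 higher. Nos2 among them had 44992 and 9422 counts, while Tnf had 17126 and 24961. Their part in the result was not tested.

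The largest differences in that pair were those of Rps15a, Rplp2 and Rpl24. Rps15a, a protein of the 40S subunit, had 331 CPM in M0, 263 in M0 with G-1, 182 in M1, 531 in M1 with G-1, 290.4 in M2, 367 in M2 with G-1, 269 in TECs and 389.6 in TECs with G-1. Its fold with G-1 in M1 was 3.35-fold (95% interval 3.26 to 3.44), and M1 with G-1 was its highest library. Rplp2 was higher by 3.17-fold (95% interval 3.09 to 3.25). Rpl24, a 60S protein at the bridge to the 40S subunit, had 399 CPM in M0, 251 in M0 with G-1, 319.5 in M1, 837 in M1 with G-1, 304 in M2, 319 in M2 with G-1, 387 in TECs and 525 in TECs with G-1. It was higher by 3.01-fold (95% interval 2.95 to 3.07) with G-1 in M1, and of the 60S genes it was the closest to its M0 level in M1 without G-1. At the other end stood 3 genes of the 60S core, Rpl3, Rpl4 and Rpl7a. Rpl3, which lies near the peptidyl transferase centre, had 759 CPM in M0, 558 in M0 with G-1, 291 in M1, 287 in M1 with G-1, 718 in M2, 587 in M2 with G-1, 1127 in TECs and 1365 in TECs with G-1. Its fold in the M1 pair was only 1.13-fold (95% interval 1.10 to 1.16), so that Rpl3 stayed low in both M1 libraries. Rpl4, which lines the exit tunnel, was higher by 1.34-fold (95% interval 1.32 to 1.36) and Rpl7a by 1.67-fold (95% interval 1.63 to 1.72).

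In M0 macrophages the members were mostly lower with G-1, by smaller folds. Here 79 of 84 folds were below 1, with 77 intervals wholly below 1 and 3 above, but only 2 members were at least 2-fold lower and 0 at least 2-fold higher, where 12.6% of 11252 measured genes were lower and 12.2% higher. The median was 1.34-fold lower (log2 -0.42, quartiles -0.54 and -0.29). Rps27, a zinc-binding 40S protein, and its copy Rps27rt passed the threshold, at 2.05-fold (95% interval 1.97 to 2.14) and 2.14-fold (95% interval 1.87 to 2.46). Rps27 had 224 CPM in M0, 97.9 in M0 with G-1, 76.5 in M1, 171 in M1 with G-1, 157 in M2, 163 in M2 with G-1, 113 in TECs and 168 in TECs with G-1. Rps29 was next, lower by 1.89-fold (95% interval 1.84 to 1.93), and had 659 CPM in M0, 314 in M0 with G-1, 273 in M1, 454 in M1 with G-1, 492 in M2, 389 in M2 with G-1, 244 in TECs and 360.4 in TECs with G-1. It was highest in M0 and lowest in TECs, unlike most members. Rps2, at the mRNA entry of the 40S subunit, went the other way: it was higher by 1.27-fold (95% interval 1.25 to 1.29), with 559.7 CPM in M0, 638 in M0 with G-1, 471 in M1, 815 in M1 with G-1, 615 in M2, 716 in M2 with G-1, 1590.0 in TECs and 1945 in TECs with G-1. Rpl12 of the stalk base and Rpl4 differed by no more than a few percent, with log2 folds of 0.04 and 0.04. In the same pair the summed level of the macrophage markers was 40861 CPM without and 11225 with G-1. Of these 10 markers, 5 were at least 2-fold lower and 0 higher (12.6% and 12.2% of all genes), while Cd68 had a log2 fold of 0.95. The part of these differences in the result was not tested.

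In the libraries labelled IL4, members hardly differed with G-1: 0 of 84 were 2-fold higher or lower, where 5.95% and 7.78% of 11344 genes were, and the median log2 fold was 0.01 (quartiles -0.07 and 0.09). Among members with at least 1000 counts Rps15a had the largest fold above 1, 1.25-fold (95% interval 1.22 to 1.29), and Rps29 the largest below, 1.28-fold (95% interval 1.25 to 1.30). Rpl4 and Rps6 followed Rps15a, with log2 folds of 0.28 and 0.28, and Rpl3 and Rps9 followed Rps29, with -0.30 and -0.29. Macrophage markers summed to 45517 CPM without and 21762 CPM with G-1 in this pair. Of these 10 markers, 3 were at least 2-fold lower and 0 higher (7.78% and 5.95% of all genes). Their median log2 fold was -0.28, and the highest was Cd14 at 0.86.

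TECs beside macrophages pretreated with LPS/IFN and G-1 had more ribosomal protein mRNA than TECs beside macrophages pretreated with LPS/IFN alone. All 84 members were above 1, and 83 intervals excluded 1, yet 0 reached 2-fold in either direction (1.39% of 12992 genes were 2-fold higher and 2.82% lower). The median fold was 1.35 (log2 0.44, quartiles 0.40 and 0.49). This pair was the most even, with an SD over core genes of 0.076 log2 units against 0.235 in M0 and 0.256 in M1. Rpl41, the smallest protein of the ribosome, was highest with 1.54-fold (95% interval 1.51 to 1.56) and had 594 CPM in M0, 376 in M0 with G-1, 428 in M1, 807 in M1 with G-1, 597 in M2, 554 in M2 with G-1, 639 in TECs and 990.3 in TECs with G-1. Rpl36a and Rps21 came next among members with at least 1000 counts, at log2 0.58 and 0.57. Rpl3, with 1.20-fold (95% interval 1.19 to 1.22), was the lowest, after Rpl4 and Rps2 at log2 0.27 and 0.28. Epithelial markers summed to 7864 CPM without and 8887 CPM with G-1, and the macrophage markers, at the low levels given above, were also lower with G-1. Their part in the result was not tested.

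**Figure D2:**
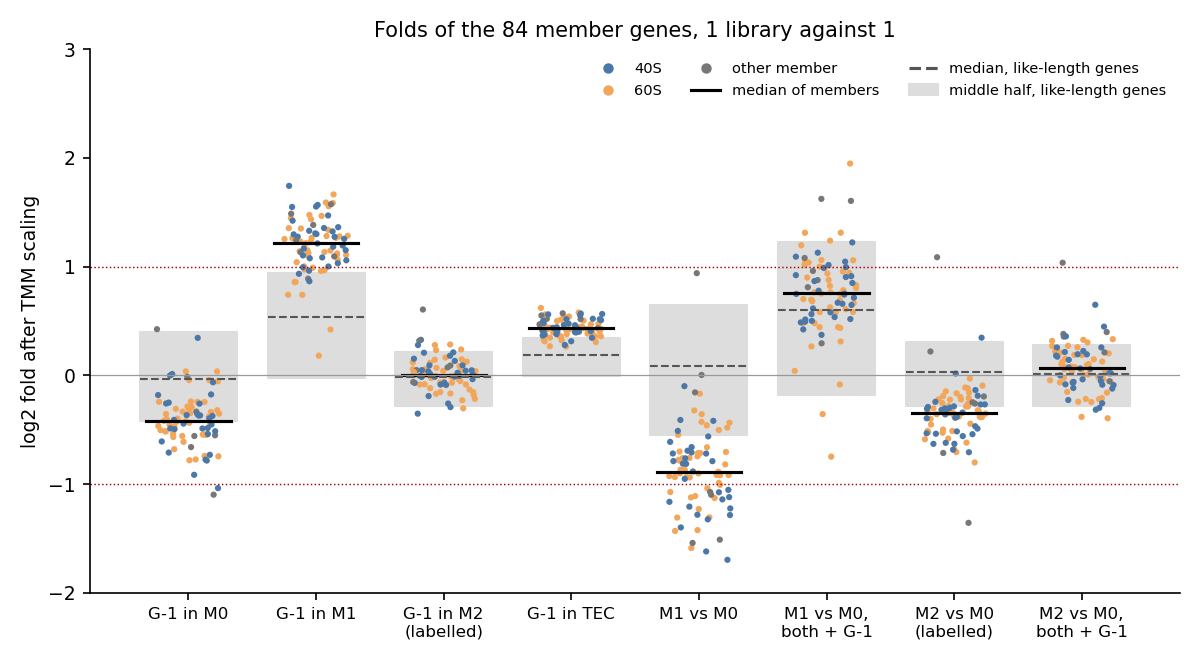
Log2 folds after TMM scaling (y axis) of the 84 members in 8 comparisons of 1 library with another (x axis). Points are genes, black lines the members' medians, dashed lines and grey boxes the median and interquartile range of nonmember genes of like transcript length with at least 1000 counts, and dotted red lines mark 2-fold. Members lie high in the M1 pair (median 1.21) and low in M1 against M0 (median -0.89).

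Folds with G-1 followed transcript length in the M1 and TEC pairs, over all genes as well as among the members. Across all measured genes Spearman's rho of length and fold was -0.46 in the M1 pair and -0.47 in the TEC pair, against 0.11 in M0, 0.03 in M2 and 0.03 in M1 against M0 without G-1. These are descriptions across genes of the same 2 libraries. In the M1 pair the shortest of 5 equal groups of genes (median length 763 nt) had a median log2 fold of 0.50 and the longest (4815 nt) one of -0.56. Among the 77 core genes, rho with transcript length was -0.34 in the M1 pair, -0.42 in the TEC pair and 0.37, of the other sign and of like size, in M0. With coding length it was -0.41, -0.64 and 0.45. In both the M1 and the TEC pair Rpl3 and Rpl4, with long coding sequences, had the smallest folds. The shortest transcript, that of Rpl38 (367.5 nt), had log2 folds of 1.47 in the M1 pair and 0.45 in TECs, and the longest, that of Rps20 (3706 nt), had 1.18 and 0.52.

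Judged against the running median of the genes nearest in transcript length, the medians of the members were smaller and kept their sign in the M0, M1 and TEC pairs. In the M1 pair the median relative log2 fold was 0.72 and 12 of 84 members were at least 2-fold higher relative to genes of like length (5.52% of all genes), Rps15a at 1.31, Rpl24 at 1.25 and Rplp2 at 1.12 among them. Of the members, 75 lay above the upper quartile (0.94) of 1223 nonmember genes of like length with at least 1000 counts. The size of this remainder depended on how length was defined: it was 0.61 with coding length, 0.39 with the longest transcript and 0.29 with transcripts paired with a RefSeq mRNA. In the M0 pair the relative median was -0.34 (-0.36 to -0.28 over 9 alternatives), 0 of 84 members were 2-fold lower (12.4% of all genes), and 41 lay below the lower quartile of like genes. The TEC remainder was 0.22, and between 0.05 and 0.25 over the alternatives.

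**Figure D3:**
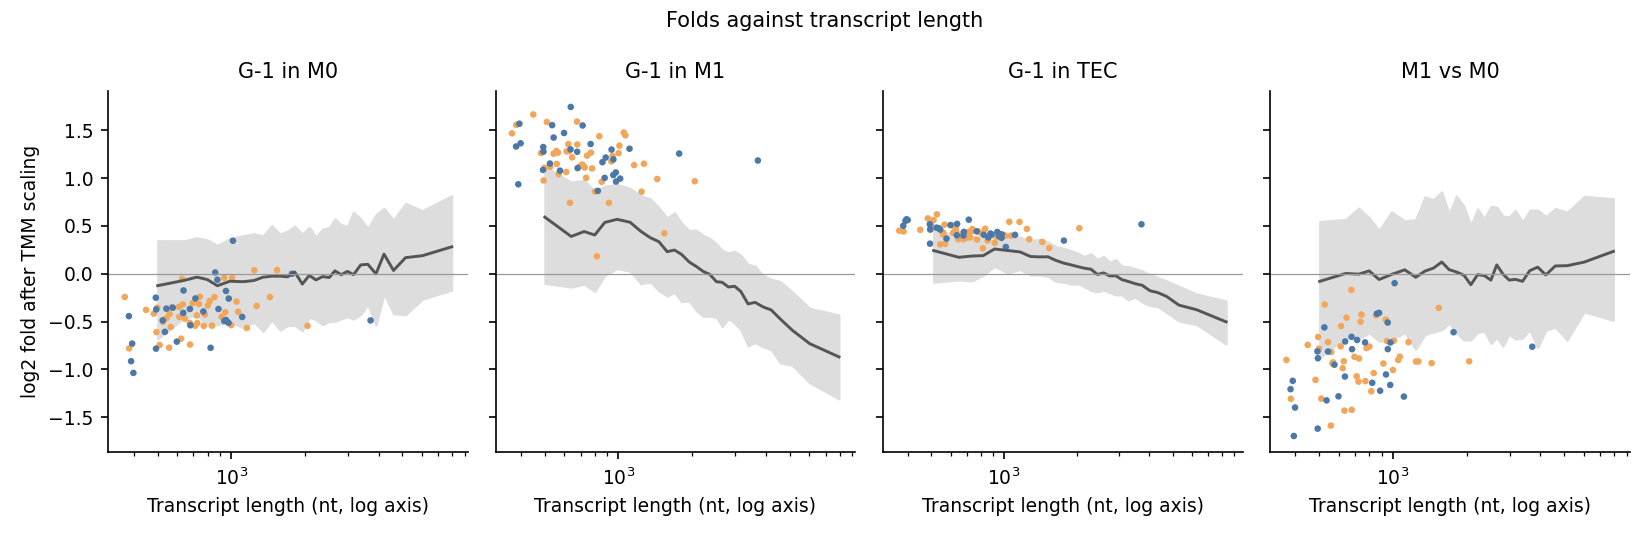
Log2 fold (y axis) against transcript length in nt (x axis, log scale) in 4 comparisons. Grey line and band give the median and interquartile range of all measured genes in 30 groups of rising length, and points are core members of the 40S (blue) and 60S (orange) subunit. Over all genes the line slopes in the M1 and TEC pairs (rho -0.46 and -0.47) and is nearly flat in M0 and in M1 against M0 (0.11 and 0.03), while most points of the last panel lie below it.

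Without G-1, M1 macrophages had less ribosomal protein mRNA than M0 macrophages, in a comparison where folds hardly followed length (rho 0.03 over all genes). In M1 29 of 84 members were at least 2-fold lower, where 17.4% of 11427 genes were, and 0 were 2-fold higher (16.8%). The median was 1.85-fold lower (log2 -0.89, quartiles -1.11 and -0.70), and 82 intervals lay below 1. Scaling by total counts gave 45 members past 2-fold, again without a share of all genes under that scaling. Relative to genes of like length the median was -0.84, again with 29 members 2-fold lower (17.7% of all genes), and 69 members lay below the lower quartile of like genes. Rps21, a small 40S protein, was lowest by fold, 3.24-fold (95% interval 3.10 to 3.39), with 233 CPM in M0, 126 in M0 with G-1, 64.6 in M1, 167 in M1 with G-1, 207 in M2, 197 in M2 with G-1, 158 in TECs and 236 in TECs with G-1. Rpl37a, a zinc-binding 60S protein, was lower by 3.01-fold (95% interval 2.92 to 3.10) and had 476 CPM in M0, 249.9 in M0 with G-1, 143 in M1, 302 in M1 with G-1, 344 in M2, 296 in M2 with G-1, 253 in TECs and 339 in TECs with G-1. M1 was the lowest of the 8 libraries for both. By contrast Rps2 (log2 -0.10), Rpl36al (-0.16) and Rps27l (0.00) were near 0, and Rps19bp1 was higher, by 1.92-fold (95% interval 1.69 to 2.19). Macrophage markers summed to 40861 CPM in M0 and 18966 CPM in M1. One by one they were mixed: of 10, 4 were at least 2-fold lower and 2 higher (17.4% and 16.8% of all genes). Their median log2 fold was -0.35, from Lyz2 at -2.05 to Cd14 at 2.69. The part of these markers in the result was not tested.

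With G-1 in both libraries the order of M1 and M0 turned round. Now 19 of 84 members were at least 2-fold higher in M1, where 17.7% of 11218 genes were, and 0 were 2-fold lower (19.7%). Of genes of like length, 30.7% were 2-fold higher, a larger share than of the members. The median fold was 1.69 (log2 0.76). Under scaling by total counts, for which no share of all genes was computed, 7 members passed 2-fold. This comparison carries the length trend (rho -0.37 over all genes), and relative to genes of like length the median was 0.21, with 3 members 2-fold higher and 1 lower (13.8% and 18.1% of all genes). It was below 0 under other lengths: -0.14 with the longest transcript and -0.21 with transcripts paired with a RefSeq mRNA. Rpl24 was higher by 3.86-fold (95% interval 3.77 to 3.95), Rps19bp1 by 3.08-fold (95% interval 2.77 to 3.44) and Rps27l by 3.04-fold (95% interval 2.86 to 3.24). Rpl3 was lower by 1.68-fold (95% interval 1.64 to 1.72), followed by Rpl10a, log2 -0.36, and Rpl12, log2 -0.08, both 60S proteins. The comparisons with and without G-1 share no library with each other, and each shares 1 library with the M0 pair and 1 with the M1 pair.

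The library labelled IL4 had slightly lower levels than M0: 80 of 84 members were below 0, and their median log2 fold was -0.34. At 2-fold only Rps27l was higher and only Rps27rt lower, where 7.70% and 6.64% of 11333 genes were. Rps27a, which encodes ubiquitin fused to a 40S protein, was higher by 1.27-fold (95% interval 1.24 to 1.30). Rplp2, Rps9 and Rpl28 were lowest among the well-counted members, with log2 folds of -0.80, -0.71 and -0.71. With G-1 in both, the median was 0.07 and Rps27l was again the one gene past 2-fold (6.70% of 11233 genes were higher and 6.11% lower). Rps27a and Rps27 came next, at log2 0.65 and 0.45, and Rpl30, Rplp2 and Rpsa were lowest, at -0.39, -0.38 and -0.32.

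TECs and M1 macrophages differ in cell type, and here fewer members than genes at large passed 2-fold. Without G-1, 4 of 84 members were at least 2-fold higher in TECs and 0 lower, where 32.3% and 21.4% of 13316 genes were, and with G-1 2 were higher and 2 lower (34.3% and 22.0% of 13157 genes). Rpl3 was higher in TECs by 2.82-fold (95% interval 2.76 to 2.88) without and 3.03-fold (95% interval 2.97 to 3.09) with G-1, Rpl10a by 2.64-fold (95% interval 2.56 to 2.72) and 2.16-fold (95% interval 2.11 to 2.22). Rps2 was higher by 2.46-fold (95% interval 2.42 to 2.50) without G-1 and Rpl12 by 1.79-fold (95% interval 1.75 to 1.83) with it. Lowest in TECs, among members with at least 1000 counts, were Rps29, Rpl36al and Rpl24 without G-1 (log2 -0.62, -0.27 and -0.18) and Rpl24, Rps15a and Rps29 with it (-1.32, -1.09 and -0.98). This result depended on the scaling: by total counts the members' median went from 0.47 to 0.93 without G-1 and from -0.24 to 0.41 with it, and 34 and 6 members were 2-fold higher. The shares of all genes hold under TMM scaling only, so these 2 counts have no share to be read against.

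Of the paralogs, Rps27l and Rpl36al took other courses than their parents. Rps27l, a paralog of Rps27 that p53 induces in human cells, had 42.4 CPM in M0, 37.7 in M0 with G-1, 38.3 in M1, 99.1 in M1 with G-1, 97.8 in M2, 94.4 in M2 with G-1, 99.0 in TECs and 138 in TECs with G-1. It was low in both M0 libraries and in M1 and high in the others. Its counts were 18.9% of those of Rps27 in M0, 38.5% in M0 with G-1, 50.1% in M1, 62.2% in M2 and 87.4% in TECs. Rps27 itself had a lower CPM in M0 with G-1, M1, M2 and TECs than in M0. Rps27l was higher with G-1 in M1 by 2.98-fold (95% interval 2.81 to 3.16), and in M2 against M0 by 2.12-fold (95% interval 2.001 to 2.26). Rpl36al, which encodes a near-identical protein to Rpl36a from another locus, had 99.8 CPM in M0, 71.1 in M0 with G-1, 80.7 in M1, 129.9 in M1 with G-1, 94.8 in M2, 101 in M2 with G-1, 91.6 in TECs and 135 in TECs with G-1, the smallest range of all members at 1.90-fold. Its counts were 67.7% of those of Rpl36a in M0 and 131% in M1. Rps27rt kept between 5.27% and 8.72% of the counts of Rps27, Rpl37rt between 10.4% and 12.2% of Rpl37, Rpl6l between 7.25% and 9.50% of Rpl6 and Rpl32l between 0.230% and 0.314% of Rpl32. These retrogenes share sequence with their parents and the sources do not say how reads with several matches were counted, so their counts are uncertain.

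Rps27l, given above, is also listed with a role outside the ribosome and had a course of its own. The other members with such roles named here were low and high in the same libraries as most members. Rps6, the substrate of S6 kinase, had 446 CPM in M0, 383 in M0 with G-1, 302 in M1, 526 in M1 with G-1, 402 in M2, 492 in M2 with G-1, 563 in TECs and 759 in TECs with G-1. Rpsa, also known as a laminin receptor, had 913 CPM in M0, 819 in M0 with G-1, 538 in M1, 1118 in M1 with G-1, 717 in M2, 804 in M2 with G-1, 1308 in TECs and 1676 in TECs with G-1. Rpl13a, which in human monocytes leaves the ribosome after IFN-γ to silence inflammatory mRNAs, had 725 CPM in M0, 426 in M0 with G-1, 413 in M1, 705 in M1 with G-1, 624 in M2, 559 in M2 with G-1, 785 in TECs and 1089 in TECs with G-1. Rps3, which can also join NF-κB complexes, had 724 CPM in M0, 573 in M0 with G-1, 458 in M1, 814 in M1 with G-1, 613 in M2, 700.4 in M2 with G-1, 853 in TECs and 1148 in TECs with G-1. Rps19 and Rps26, mutated in Diamond-Blackfan anemia, had log2 folds of 1.30 and 1.10 in the M1 pair and -0.41 and -0.54 in M0. Rpl22 had 0.97 and -0.55. All of these were lowest in M1 and highest in TECs with G-1. Of 19 genes linked to that anemia, 16 were 2-fold higher in the M1 pair (9.44% of all genes) with a median of 1.27, close to the 69 of 84 and 1.21 of all members. Rps19bp1 differed in course: it had 10.2 CPM in M0, 12.2 in M0 with G-1, 17.6 in M1, 32.6 in M1 with G-1, 12.9 in M2, 19.7 in M2 with G-1, 21.3 in TECs and 28.7 in TECs with G-1, lowest in M0, and was higher with G-1 in all 4 pairs.

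Other genes of the translation machinery were grouped by function. Of 15 other TOP genes, 7 were at least 2-fold lower in M1 without G-1 and 1 higher (17.4% and 16.8% of all genes), with a median log2 fold of -0.997. Fau, which encodes the ribosomal protein RPS30 fused to a ubiquitin-like sequence and which the symbol rule leaves out, had a log2 fold of -0.98, and of 1.35 with G-1 in M1. Tpt1 had -1.09 and 1.18. Hnrnpa1, a splicing regulator, was the one higher in M1, at 1.38, and Pabpc1, the poly(A)-binding protein, was at 0.00. Of 5 elongation factor genes, 2 were 2-fold lower in M1 (17.4% of all genes): Eef1a1, which delivers aminoacyl-tRNA, had 6891 CPM in M0, 6242 in M0 with G-1, 2157 in M1, 4368 in M1 with G-1, 6902 in M2, 7119 in M2 with G-1, 7712 in TECs and 9233 in TECs with G-1, and Eef1b2, its exchange factor, had a log2 fold of -1.22. Eef1g was higher, at 0.56.

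Assembly factors and mitochondrial ribosomal proteins had medians of the other sign in M1 against M0. Of 59 ribosome biogenesis genes, 14 were at least 2-fold higher in M1 against M0 (16.8% of all genes) and 0 lower (17.4%), with a median log2 fold of 0.57. With G-1 in M0, 10 were higher (12.2% of all genes) and 0 lower (12.6%), with a median of 0.47. The shares of higher genes were thus not far from those over all genes, and the ribosomal protein genes had medians of -0.89 and -0.42. Rrp12, a factor of subunit export, had 285 and 1241 counts in M0 without and with G-1. Of 10 measured RNA polymerase I genes, 1 was higher and 1 lower in that pair, with a median of -0.11: Polr1a, the largest subunit, was at log2 2.18 and Taf1a at -1.01. Myc, which drives both rRNA synthesis and ribosomal protein genes, had 97 and 1048 counts in the same pair, a log2 fold of 3.51. Of 78 mitochondrial ribosomal protein genes, whose mRNAs are short as well, 5 were 2-fold higher and 0 lower in M1 against M0 (16.8% and 17.4% of all genes), with a median of 0.20. With G-1 in M1 27 of these 78 were 2-fold higher (9.44% of all genes and 20.3% of genes of like length to the cytosolic members) and 0 lower (12.1% of all genes), with a median log2 fold of 0.92, or 0.55 relative to genes of like length, where the cytosolic members had 1.21 and 0.72. In TECs the mitochondrial ones had 0.35 and 0.18, and the cytosolic ones 0.44 and 0.22. Of 27 initiation factors, 5 were higher in M1 against M0, a share near the 16.8% of all genes, and 0 lower (17.4%), with a median of 0.52, led by the cap-binding protein gene Eif4e at 1.75.

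**Figure D4:**
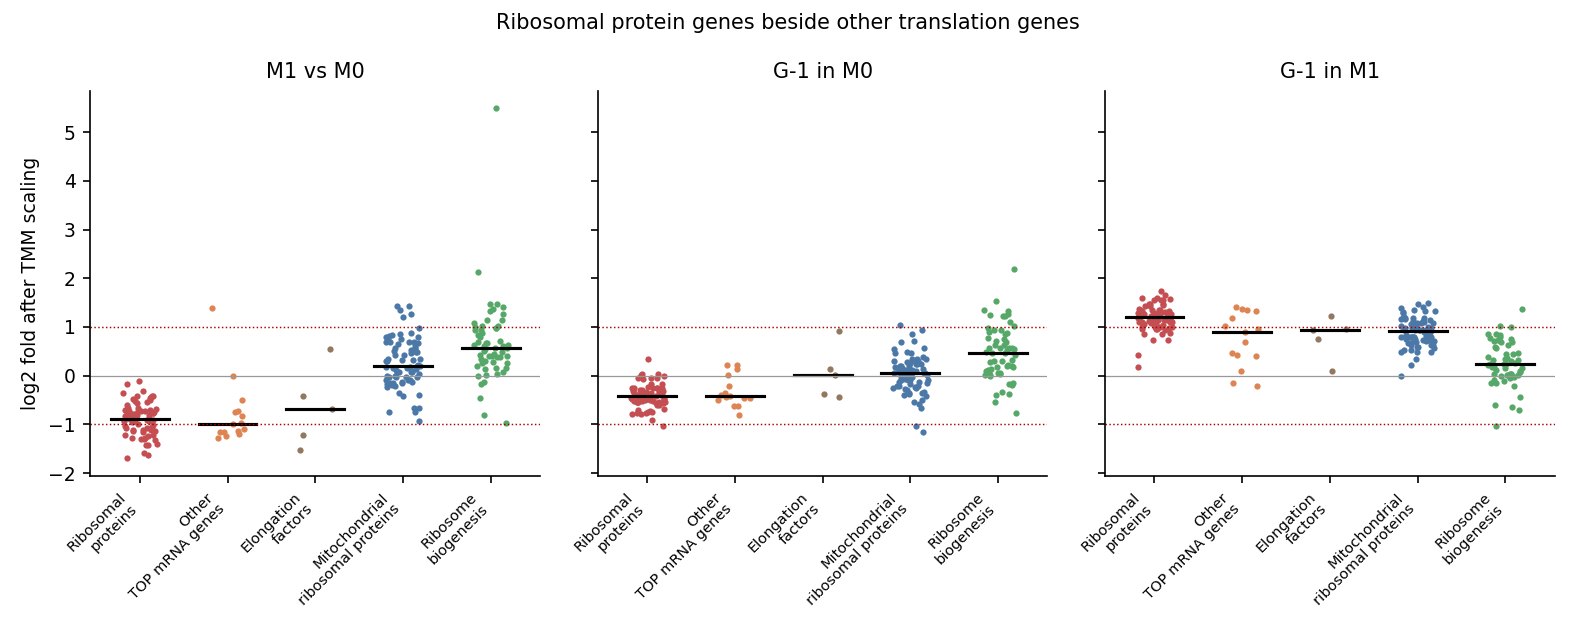
Log2 folds (y axis) of the 77 core ribosomal protein genes, 15 other TOP genes, 5 elongation factors, 78 mitochondrial ribosomal proteins and 59 ribosome biogenesis genes (x axis) in M1 against M0, with G-1 in M0 and with G-1 in M1. Points are genes, black lines medians and dotted lines 2-fold; in M1 against M0 the medians of the first 3 groups lie below 0 and those of the last 2 above it (0.20 and 0.57).

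Members with and without the tract at the annotated start had medians of the same sign, furthest apart in the M1 pair among the comparisons given here. The SD over core genes in that pair was 0.256, and those without a tract include Rps19bp1. In the M1 pair the median log2 fold was 1.34 for the 15 with a tract and 1.12 for the 48 without, in M0 -0.38 and -0.43, in TECs 0.46 and 0.43, and in M1 against M0 -0.81 and -0.88. Of the sequences shown, Rps27 and Rps27rt (tract at the start) were the lowest with G-1 in M0 and Rps2 and Rpl4 (no tract there) the highest, yet Rps6, with a tract, had -0.06. Rpl24, with no tract in the stretch shown, and Rps15a and Rplp2, with one, were the 3 highest in the M1 pair.

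No ribosomal protein gene passed the test of a G-1 effect shared by the 3 macrophage states. Over the 6 macrophage libraries, with state and G-1 in edgeR's quasi-likelihood model (2 residual degrees of freedom), 0 of 84 members had a Benjamini-Hochberg adjusted p under 0.05, as had 0 of all 11921 genes tested (at an unadjusted p under 0.05, 5.67% of genes were higher and 8.04% lower, 1634 in all, and of the members 1 was higher). DESeq2 called 796 of 15522 genes and 0 members, and had 1 member at an unadjusted p under 0.05. The median log2 fold of the members was 0.23, between the opposite values of M0 and M1. Rps19bp1 had the lowest p (log2 0.68, unadjusted p = 0.038, adjusted p = 0.331, edgeR) and was higher in 3 of 3 states. Rps2 came next, with log2 0.49 and an adjusted p of 0.548 in edgeR, also higher in 3 of 3 states. Rps15a, Rpl14 and Rpl31 followed, with log2 folds of 0.59, 0.47 and 0.47. Only Rpl3 (-0.17), Rps29 (-0.15) and Rps9 (-0.10) were negative. With the length trend taken out, the median was 0.11 and again 0 members were called.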

How the data were processed

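RNA was extracted with TRIzol, made into libraries with the VAHTS Universal V6 kit and sequenced paired-end on an Illumina NovaSeq. The deposited values are whole-number read counts per gene symbol that the authors made. Their processing notes name mm10 and DESeq2, and no source used here names the aligner or counter. No column was left unused (0). Members and gene lists were chosen with earlier results of these data known.

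CPM used library totals. Log2 folds within 2 libraries were computed after TMM scaling (edgeR 4.0.16, R 4.3.3) where the higher of both counts was 20 or more, with a count of 0 set to 3. Calls needed 2-fold, and 95% intervals are exact binomial. Relative folds subtract the median of the genes nearest in median protein-coding transcript length (GENCODE M21), known for 21097 of 22173 symbols. Sequences are from RefSeq (GRCm38.p6). Over the 6 macrophage libraries, edgeR's quasi-likelihood test used state and G-1, with DESeq2 1.42.0 as an alternative. The model was also run on simulated data in which changed genes had the same G-1 effect in every state. The members' medians had opposite signs in M0 and M1, so that run does not show what the test could detect among them.

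Named members were the 3 highest and 3 lowest of each comparison with at least 1000 counts, the stalk, 5S particle, paralog and extra-ribosomal genes, the shortest and longest transcripts, the lowest p-values, and the extremes of other lists. Rpl6l, Rpl29, Rpl32l, Rpl35a, Rpl37rt, Rps27rt, Tpt1, Pabpc1, Fau and others outside this rule were named after their values were seen, and values of some genes within counts and medians are not reported here by name. Precision is set by totals of 35027179 to 40671596 counts, and intervals cover counting error only, since each group has 1 library. PCR reads are not independent molecules, so the intervals can be too narrow even for that error. Alternatives were total counts, other lengths, windows, minimum counts, core genes only and leaving out pairs.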

Additional observations from a re-analysis of the deposited data

Results flagged for a closer look

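The medians of the ribosomal protein genes with G-1 had opposite signs in different pairs. In the M0 pair the median log2 fold was -0.42 and in the M1 pair 1.21, with 79 of 84 members below 0 in the first and 84 of 84 above 0 in the second. In the TEC pair, where G-1 had been given to the co-cultured macrophages, it was 0.44 against the -0.42 of the M0 pair, with 84 of 84 members above 0. The difference between pairs was not tested, since each group has 1 library.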

How the results depend on the processing

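Of the values under alternatives, 234 stayed close and 64 moved. Close meant within counting error, within 1.5 times for counts, and within the SD over members for medians of the 6-library test. Scaling by total counts in place of TMM changed the median log2 fold to -0.58 in the M0 pair, 1.01 in the M1 pair, -1.04 and 0.55 in M1 against M0 without and with G-1, -0.22 and 0.36 in M2 against M0, and 0.93 and 0.41 in TEC against M1. It gave 43 members higher in the M1 pair, 45 lower and 7 higher in M1 against M0 without and with G-1, and 34 higher, then 6 higher and 0 lower, in TEC against M1. Shares of all genes were computed under TMM scaling and not under total counts. Counting by the near bound of the interval left 0 lower in the M0 pair and 0 higher in M2 against M0 with G-1. With core genes only, 1 was lower in the M0 pair, 0 were higher and 0 lower in M2 against M0 without G-1, and 0 were higher with it. The shares in library order were then 3.72%, 2.57%, 1.89%, 3.66%, 3.13%, 3.17%, 3.73% and 4.998%, and with the 20 most abundant genes left out of the total 4.54%, 3.25%, 2.28%, 4.70%, 3.76%, 3.86%, 4.10% and 5.48%.

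The relative median depended most on the length used. With the longest transcript it was -0.29 in the M0 pair, 0.39 in the M1 pair, 0.088 in the TEC pair, -0.14 and -0.10 in M1 and M2 against M0 with G-1 and 0.19 in TEC against M1 with G-1. With coding length, chosen after seeing the data, it was 0.61 in the M1 pair, 0.15 in the TEC pair, 0.12 in M1 against M0 with G-1, -0.42 in M2 against M0 and 0.054 in TEC against M1 with G-1. With transcripts paired with a RefSeq mRNA, also chosen after seeing the data, it was -0.28, 0.29 and 0.054 in the M0, M1 and TEC pairs, -0.78 and -0.21 in M1 against M0 without and with G-1, -0.42 and -0.17 in M2 against M0, and 0.57 and 0.33 in TEC against M1. Length and GC content together gave -0.34 and 0.026 in M2 against M0. In TEC against M1, a narrower window of the running median gave 0.44 without G-1 and a wider one -0.061 with it, and a minimum of 100 counts gave 0.54 and 0.064. The cause of these changes was not tested. In the test over 6 libraries the members' median was 0.58 without the M0 pair, -0.23 without the M1 pair and 0.36 without the M2 pair, with 0 members called in each. Over all genes, 14 were called higher and 23 lower without the M0 pair, 422 and 556 of 11608 without the M1 pair, and 14 and 33 without the M2 pair. That test pairs the libraries by state. No pairing by replicate number could be fitted, since the labels give none.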

Other observations

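Genes with ribosomal protein names that the symbol rule leaves out did not all go with the members. Rpl22l1, a paralog of Rpl22, had 1337 counts in M0, 1467 in M0 with G-1, 852 in M1, 598 in M1 with G-1, 2430 in M2, 1451 in M2 with G-1, 3709 in TECs and 4862 in TECs with G-1. Its log2 fold with G-1 was 0.21 in M0, where the median member had -0.42, and -0.35 in M1, where the median member had 1.21. Its counts were 9.40% of those of Rpl22 in M1 with G-1 and 50.9% in TECs. Rpl34-ps1, a pseudogene of Rpl34, had 192 counts in M1 and 506 in M1 with G-1, with log2 folds of 1.56 in that pair and -0.75 in the M0 pair, as far as reads can be told from those of Rpl34.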
